A study of Mus musculus with 21 samples.

Results

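Cytosolic ribosomal protein genes were followed in mouse liver after blockade of microRNA-122. They were taken as the genes whose own array probe sets carry a symbol starting Rpl or Rps and a number, or Rplp0, Rplp1, Rplp2 or Rpsa. Ribosomal S6 kinases, Rps19bp1 and pseudogene symbols were left out. The rule found 49 genes among the 18193 genes with a probe set of their own. Of these, 20 encode proteins of the large subunit, 21 proteins of the small subunit, 2 acidic proteins of the ribosomal stalk, and 6 carry the "-like" symbols of paralogs. Each gene was represented by its brightest probe set, and 24 of the 49 had more than 1. A further 110 probe sets list a ribosomal protein symbol together with other symbols. There 31 ribosomal protein symbols appear that have no probe set of their own, among them Rplp1, Rpl3, Rpl5 and Rps27a, which therefore have no value here.

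Treated mice received 25 mg per kg of SPC3372, an antisense oligonucleotide with locked nucleic acid bases that binds microRNA-122, on day 2. Control mice received saline. Livers of female NMRI mice, an outbred stock, were taken on day 3, 9 or 23 from 3 treated and 3 saline mice each. The 18 mice gave 21 arrays, since the 3 treated mice of day 23 were hybridised both in the array set named p0617, which holds days 3 and 9, and in p0621, which holds the saline mice of day 23. Values are log2 levels per probe set. Array medians lay between 4.75 and 4.82, and precision is limited by there being 3 arrays a group. The RNA is that of whole liver, so fewer cells of a type and less RNA per cell cannot be told apart. The 8 hepatocyte markers measured, such as Alb and Apoa1, were all above the median level of all probe sets. Their mean level per array was 13.68 to 13.77 in treated and 13.66 to 13.79 in saline mice of day 3. At day 9 it was 13.78 to 13.88 in treated and 13.65 to 13.75 in saline mice. At day 23 it was 13.9 to 13.95 in treated and 13.75 to 13.81 in saline mice. On both days every treated array lay above every saline array in this mean, which includes Apob. Treated minus saline, Apob differed by 0.98 (log2) at day 9, and the other markers by -0.09 (Cps1) to 0.12 (Hnf4a). Averaged over the 3 days, Apob differed by 0.53 and the others by -0.03 (Apoa1) to 0.10 (Cyp2e1).

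Each ribosome of the cytosol joins a large and a small subunit, and each subunit holds ribosomal RNA and a fixed set of proteins, mostly in a single copy. Their messenger RNAs are abundant in most cells, and the liver makes large amounts of protein for the blood. Most of these messenger RNAs begin with a tract of pyrimidines at the 5′ end, the TOP motif, through which the mTORC1 kinase pathway controls their translation, largely without a change in the amount of messenger RNA. The arrays measured the messenger RNA and not its translation.

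The start regions of ribosomal protein genes were read from RefSeq promoters of mouse build GRCm38.p6, where 43 of the 49 genes had an entry. Rpl7, Rpl8, Rps14, Rps20, Rps29 and Rps4l had none. The windows below run from 70 bases before the annotated start (the most upstream one of the gene) through the 30 bases from it and are shown for genes on which the results turn. They are Rpl22l1, Rpl37, Rpl7a, Rpl13a, Rps3a1, Rps19 and Rpsa, with Rpl22 and the stalk gene Rplp2 for contrast. Capitals mark runs of 8 or more pyrimidines (C or T, on the strand of the gene) and the letters CCGGAAG on either strand, the core of sites for ETS family factors.
Rpl22l1: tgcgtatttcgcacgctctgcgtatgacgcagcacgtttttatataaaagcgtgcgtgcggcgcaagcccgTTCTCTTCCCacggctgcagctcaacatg
Rpl22: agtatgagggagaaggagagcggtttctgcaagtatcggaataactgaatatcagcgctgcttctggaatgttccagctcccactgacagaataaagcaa
Rpl37: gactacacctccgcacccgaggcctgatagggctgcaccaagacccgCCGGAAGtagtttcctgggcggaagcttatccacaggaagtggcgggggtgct
Rpl7a: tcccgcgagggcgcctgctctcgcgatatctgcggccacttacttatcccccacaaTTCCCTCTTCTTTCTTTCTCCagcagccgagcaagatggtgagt
Rpl13a: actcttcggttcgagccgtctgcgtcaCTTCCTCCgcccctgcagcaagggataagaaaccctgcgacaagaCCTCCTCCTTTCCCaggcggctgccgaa
Rps3a1: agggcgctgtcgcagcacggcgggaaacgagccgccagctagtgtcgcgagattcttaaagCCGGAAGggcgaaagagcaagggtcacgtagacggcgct
Rps19: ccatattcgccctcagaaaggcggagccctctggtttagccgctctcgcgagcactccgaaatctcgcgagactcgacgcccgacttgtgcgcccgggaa
Rpsa: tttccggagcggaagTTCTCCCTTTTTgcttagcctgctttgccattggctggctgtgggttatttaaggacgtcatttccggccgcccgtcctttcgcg
Rplp2: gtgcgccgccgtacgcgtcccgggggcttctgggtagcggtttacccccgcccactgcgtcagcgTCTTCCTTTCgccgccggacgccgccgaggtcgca

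The windows lie at chr3:28805438-28805537 (plus strand) for Rpl22l1 and at chr4:152324366-152324465 (plus strand) for Rpl22. Those of Rpl37 and Rpl7a are chr15:5116543-5116642 (plus strand) and chr2:26910737-26910836 (plus strand). Rpl13a is read at chr7:45128716-45128815 (minus strand) and Rps3a1 at chr3:86142639-86142738 (minus strand). Rps19 is read at chr7:24884522-24884621 (plus strand). Rpsa is read at chr9:120127696-120127795 (plus strand) and Rplp2 at chr7:141447581-141447680 (plus strand). The longest run, 21 pyrimidines, is that of Rpl7a, and Rpl13a has 2 runs. The windows of Rpl37 and Rps3a1 hold CCGGAAG and no such run, and those of Rps19 and Rpl22 hold neither. Rps19 has 3 annotated starts and Rpl22 has 2, and windows at their other starts were not read. Runs were counted anywhere in the window, so a run is not by itself a TOP motif. The run of Rpsa and the first run of Rpl13a lie before the annotated start. In 26 of the 43 windows (60.5%) there was a run of 8 or more pyrimidines, against 36.2% of the windows of all 27025 genes of the promoter table.

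CCGGAAG, searched on both strands of the 300 bases of each entry, was found in 21 of the 43 (48.8%), against 9.1% of all genes. Its reverse complement begins with pyrimidines, so matches of both searches can overlap. GGGCGG, the core of Sp family sites, was found in 24 of the 43 (55.8%) and in 35.9% of all. GCCATNTT, a YY1-like motif, was found in 7 of the 43 (16.3%) and in 6.2% of all. TATAAA was found in 6 of the 43 (14.0%) and in 14.2% of all. A match of letters describes these sequences and does not show that a factor binds.

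Most of these genes gave some of the brightest signals of the liver arrays. The mean over 21 arrays was 11 or above for 36 of the 49, while the median level of all probe sets was 4.78. Rps29, a small subunit protein, had the highest level at 13.57, followed by Rpl37a of the large subunit at 13.29 and Rps2 of the small subunit at 13.24. The other 13 genes lay below 11, and 3 lay below the median of all probe sets. These 3 were Rpl39l at 3.64, Rpl3l at 3.31 and Rps16 at 3.02. Rpl3l is known as a paralog of Rpl3 made mainly in muscle, while Rps16 belongs to every small subunit. A level on an array also depends on the probes, so the order between genes is not an order of RNA amounts.

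**Figure D1:**
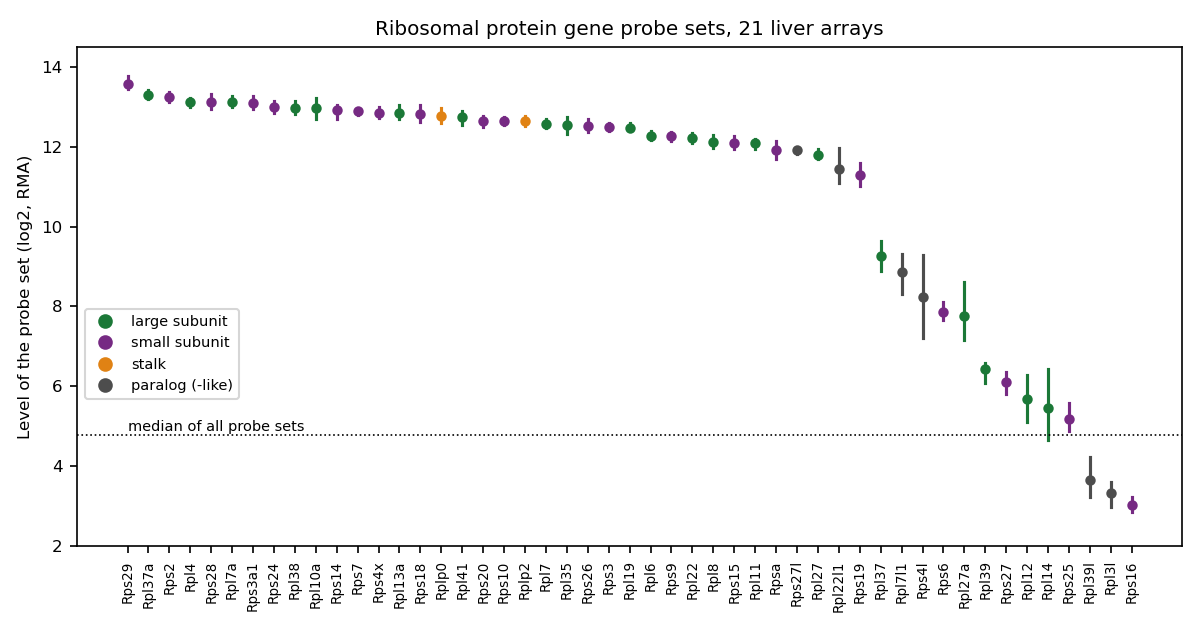
Mean level (log2, RMA) of the probe set of each of the 49 genes over 21 arrays, with a line from the lowest to the highest array and colours for the subunit. Levels run from 13.57 for Rps29 to 3.02 for Rps16, and the dotted line marks the median of all probe sets, 4.78.

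The spread within groups was small for most of these genes. The median residual SD of the 49 was 0.063 on the log2 scale, with 0.031 for Rpl27, the lowest, and 0.62 for Rpl14, the highest. Rps4l had an SD of 0.53, and its level in single mice ran from 7.21 to 9.29. With such errors, the 95% interval of the treated minus saline difference lay within 0.5 on the log2 scale on both sides of 0 for 43, 42 and 44 of the 49 genes at days 3, 9 and 23.

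At day 3, the day after dosing, 2 of the 49 genes were lower in treated than in saline liver and 0 were higher (limma, 5 and 0 at an unadjusted p under 0.05). Both lowered genes encode large subunit proteins or their paralogs: Rpl22l1, the paralog of Rpl22, and Rpl37. Over all 18193 genes, 1.86% fell and 2.62% rose at the adjusted threshold. The median difference of the 49 genes was -0.073 (log2, treated minus saline), with 36 of 49 below 0, against a median of 0.012 over all genes. Without saline day 3 replicate 3 the median of the 49 was -0.029. The test throughout is limma's moderated test on 18 arrays, two-sided. Adjustment is by Benjamini-Hochberg over all 18193 genes, with a threshold of 0.05. Shares of all genes are at this adjusted threshold. Counts at an unadjusted p are given without a share of all genes, so they are not read as a result about these genes.

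Rpl22l1 had levels of 11.34, 11.32 and 11.51 in treated mice, against 11.84, 11.97 and 11.67 in saline mice at day 3. All 3 treated mice lay below all 3 saline mice. The difference was -0.44 (SE 0.10), or 1.35-fold lower, with an adjusted p of 0.0148 in limma. Rpl22 itself had 12.13, 12.21 and 12.10 in treated mice, against 12.12, 12.14 and 12.25 in saline mice, so the groups overlapped. Its difference was -0.03 (SE 0.07, adjusted p = 0.894 in limma), and the interval of that difference ran from -0.17 to 0.12.

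Rpl37, a zinc-binding large subunit protein, had 9.21, 9.37 and 9.12 in treated mice, against 9.51, 9.62 and 9.63 in saline mice on the same day. The groups did not overlap. The difference was -0.35 (SE 0.10), or 1.28-fold lower (limma adjusted p = 0.047). Rpl37 has only 1 probe set of its own, with the suffix _x_at, so no second one could be set beside it. Both calls depended on single mice: without 1 array at a time the adjusted p of Rpl22l1 exceeded 0.05 for 3 of the 6 arrays (0.0572 to 0.0802) and that of Rpl37 for 5, and the number of lowered genes ranged from 0 to 2.

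None of the other 47 genes passed at day 3. The largest difference in size belonged to a dim probe set, that of Rpl12, with 5.68, 5.93 and 5.41 in treated mice, against 6.01, 6.27 and 6.27 in saline mice. All 3 treated mice were lower, yet the difference of -0.51 had an SE of 0.18 (limma adjusted p = 0.129). Rpl14 differed by -0.39 with an SE of 0.43. The 3 highest differences were 0.13 for Rpl3l, 0.12 for Rpl27a and 0.09 for Rps29, with adjusted p of 0.509 or more in limma. In all, 14 of the 49 genes had every treated array below every saline array, and 0 had every treated array above. Among all genes those shares were 10.3% and 11.1%.

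Small subunit genes were not called at day 3 (0 of 21 by limma, 2 at an unadjusted p under 0.05, median -0.085). Rpsa, which is also known as the laminin receptor, came closest among the bright ones. Its levels were 11.71, 11.94 and 11.74 in treated mice, against 12.04, 12.08 and 12.02 in saline mice, without overlap. The difference was -0.25 (SE 0.08, limma adjusted p = 0.0951). The other of the 2 genes was Rps25, a small subunit protein with a dim probe set. It had 5.19, 5.06 and 4.87 in treated mice, against 5.40, 5.30 and 5.58 in saline mice, without overlap, and differed by -0.39 (SE 0.12, limma adjusted p = 0.0865). Rps6, the substrate of the S6 kinases downstream of mTORC1, had 7.70, 7.65 and 7.77 in treated mice, against 7.85, 8.06 and 7.79 in saline mice, also without overlap, and a difference of -0.19 (SE 0.09, adjusted p = 0.276).

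The stalk genes, whose proteins recruit elongation factors to the ribosome, were not called at day 3. Rplp0 had 12.89, 12.96 and 12.74 in treated mice, against 12.86, 12.89 and 12.78 in saline mice at day 3, and Rplp2 had 12.61, 12.66 and 12.60 in treated mice, against 12.59, 12.52 and 12.67 in saline mice. The groups overlapped for both. Their differences were 0.02 (SE 0.09) and 0.03 (SE 0.07). Rps27l, a paralog of Rps27 known to respond to DNA damage signals, differed by 0.01 (SE 0.07), and Rps27 by 0.06 (SE 0.09).

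At day 9, 1 of the 49 genes fell and 0 rose, against 0.896% and 1.91% of all genes. At an unadjusted p under 0.05, 7 of the 49 were lower and 0 higher. The median difference was -0.073, with 40 of 49 below 0, against -0.020 over all genes. The called gene was Rpl3l, whose probe set is among the dimmest. It had 3.23, 3.11 and 2.98 in treated mice, against 3.31, 3.53 and 3.59 in saline mice, a difference of -0.37 (SE 0.09, limma adjusted p = 0.0443). The groups did not overlap, but the level lies below the median of all probe sets, and the call was lost without any of 5 of the 6 arrays.

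Rpl22l1 and Rpl37 did not pass at day 9, though their arrays again did not overlap. Rpl22l1 had 11.36, 11.37 and 11.25 in treated mice, against 11.58, 11.69 and 11.69 in saline mice, a difference of -0.33 (SE 0.10, limma adjusted p = 0.0826). Rpl37 had 9.12, 9.27 and 8.89 in treated mice, against 9.36, 9.34 and 9.44 in saline mice, a difference of -0.29 (SE 0.10, adjusted p = 0.128). At day 9 all treated arrays lay below all saline arrays for 16 genes, and above for 1, against 11.2% and 10.4% of all genes. The gene above was Rpl7l1, a paralog of Rpl7, with a difference of 0.33 (SE 0.18, adjusted p = 0.379). The other high differences of the day, 0.46 for Rpl14 and 0.18 for Rps4l, had SEs of 0.43 and 0.37.

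At day 23 limma called 0 of the 49 genes, with 11 lower and 1 higher at an unadjusted p under 0.05. Calls at the adjusted threshold were few over all genes too, with 0.198% lower and 0.187% higher. The median difference was the lowest of the 3 days, -0.10, with 43 of 49 genes below 0, against -0.020 over all genes. All treated arrays lay below all saline arrays for 24 of the 49 genes and above for 0, against 11.1% and 8.1% of all genes. Large subunit genes had a median of -0.12 and small subunit genes one of -0.089.

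Rps19, a small subunit protein whose human gene is mutated in Diamond-Blackfan anaemia, had 11.21, 11.23 and 11.20 in treated mice, against 11.43, 11.60 and 11.37 in saline mice at day 23. The groups did not overlap, and the difference was -0.25 (SE 0.08, limma adjusted p = 0.152). Rps15 also had no overlap and differed by -0.23 (SE 0.08, adjusted p = 0.179). Rpl11, which with Rpl5 can bind Mdm2, had 12.05, 11.98 and 12.01 in treated mice, against 12.18, 12.15 and 12.20 in saline mice, a difference of -0.16 (SE 0.06, adjusted p = 0.262). Rplp0 differed by -0.20 (SE 0.09, adjusted p = 0.314) on this day and Rplp2 by -0.10 (SE 0.07).

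The groups were not apart for Rpl22l1 and Rpl37 at day 23. Rpl22l1 had 11.27, 11.47 and 11.35 in treated mice, against 11.37, 11.27 and 11.56 in saline mice, a difference of -0.03 (SE 0.10). Rpl37 differed by -0.03 as well (SE 0.10). For both genes the groups overlapped. Mean levels of Rpl22l1 at days 3, 9 and 23 were 11.392, 11.325 and 11.364 in treated mice and 11.827, 11.652 and 11.398 in saline mice. Those of Rpl37 were 9.24, 9.09 and 9.24 in treated mice and 9.59, 9.38 and 9.27 in saline mice. With the p0621 arrays at day 23, the means thus moved more between days in saline than in treated mice. On the p0617 arrays of the same treated mice, the day 23 means were 11.191 for Rpl22l1 and 9.098 for Rpl37. Set against saline arrays of p0621, the difference of Rpl22l1 was then -0.21. Saline arrays of day 23 lie only in p0621, another array set than that of days 3 and 9.

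**Figure D2:**
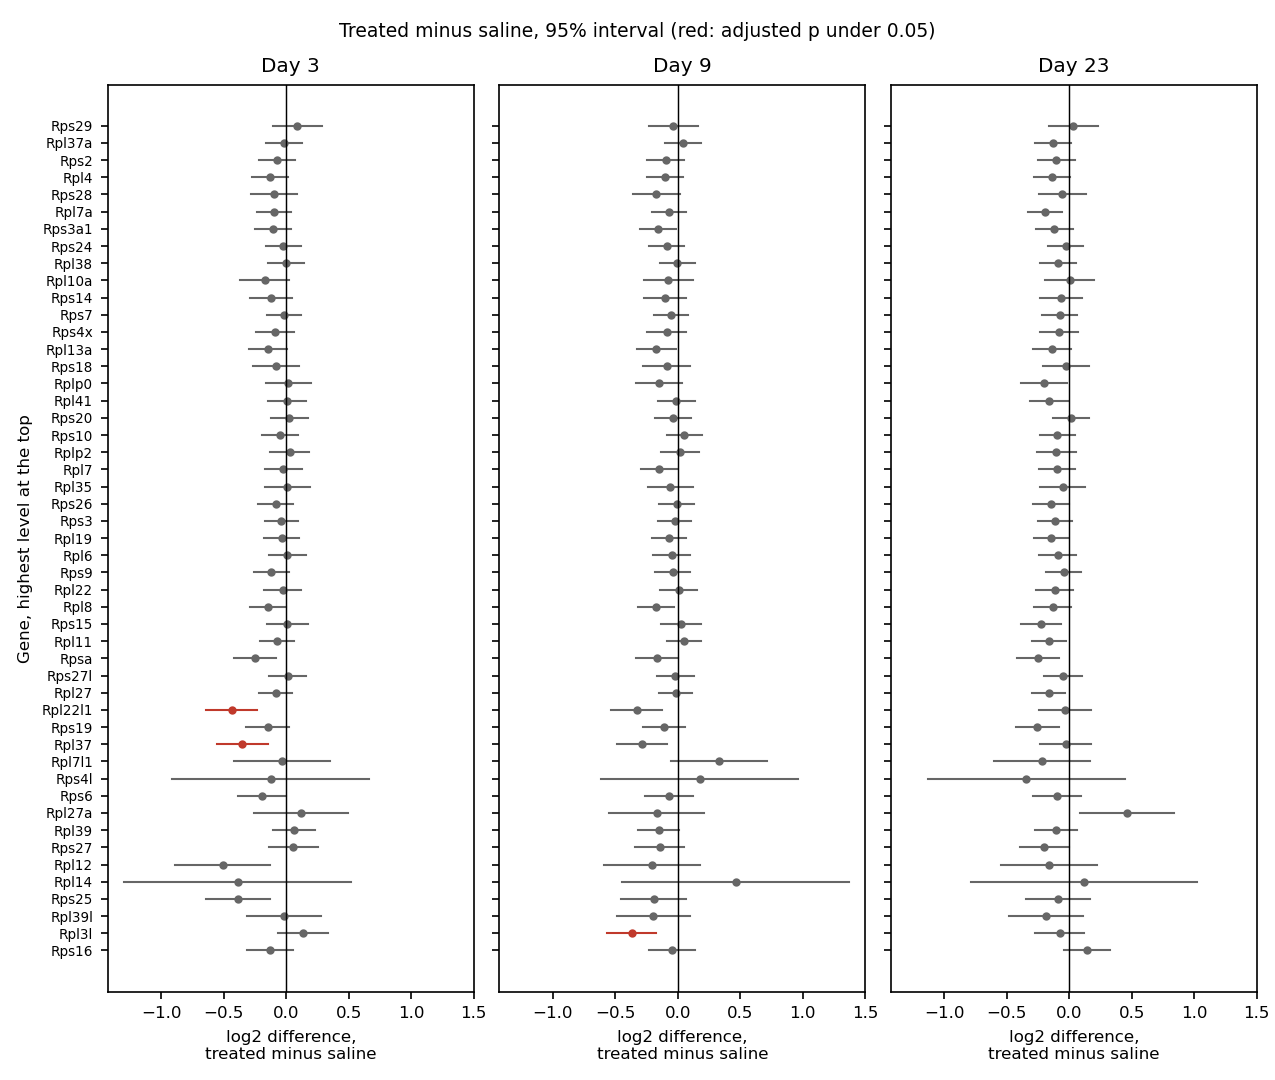
Treated minus saline difference (log2) of each of the 49 genes at days 3, 9 and 23, ordered by level with the brightest at the top; points are fitted differences, lines are 95% intervals and red marks an adjusted p under 0.05. Most points lie just left of 0, and red marks Rpl22l1 and Rpl37 at day 3 and Rpl3l at day 9.

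Averaged with equal weight over the 3 days, limma called 8 of the 49 genes lower in treated liver (16.3%) and 0 higher. Of all genes 5.97% were lower and 5.59% higher at the same adjusted threshold. At an unadjusted p under 0.05, 17 of the 49 were lower and 0 higher, a count with no share of all genes beside it. The median difference was -0.082, with 45 of 49 genes below 0, against -0.0084 over all genes. The 8 genes were Rpl22l1, Rpl37, Rpl13a, Rpl7a, Rpl8, Rpsa, Rps19 and Rps3a1. Apart from those that the naming rule covers, they are named after their values were seen. By limma's mean over days, Rpl22l1 differed by -0.27 (SE 0.06, adjusted p = 0.0051) and Rpsa by -0.22 (SE 0.05, adjusted p = 0.00501). Rpl37 differed by -0.22 and Rps19 by -0.17, and the other 4 by -0.15 to -0.12. Without treated day 9 replicate 3, or without treated day 23 replicate 1, 5 of the 8 passed: Rpl22l1, Rpl37, Rpl8, Rps19 and Rpsa.

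Bright genes outside the ribosome also had a median difference below 0. Of 708 other genes with a level of 11 or above, 98 fell (13.8%) and 62 rose (8.76%) in the mean over days, with a median of -0.027. Their medians at days 3, 9 and 23 were -0.038, -0.027 and -0.0088. The 36 ribosomal protein genes at that level had medians of -0.062, -0.064 and -0.10, and 7 of them (19.4%) fell in the mean over days. The difference between these shares was not tested.

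Rpl8, which lies near the peptidyl transferase centre of the large subunit, had all treated arrays below all saline arrays on each of the 3 days. Its levels were 12.11, 12.16 and 12.08 in treated mice, against 12.28, 12.21 and 12.30 in saline mice at day 3. At day 9 they were 12.02, 12.08 and 11.96 in treated mice, against 12.20, 12.12 and 12.25 in saline mice. At day 23 they were 11.99, 12.05 and 12.04 in treated mice, against 12.14, 12.23 and 12.12 in saline mice. The daily differences, -0.14, -0.17 and -0.13 (SE 0.07 each), were close to each other and none passed at a single day.

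Rpsa likewise did not overlap on any day. It had 11.89, 11.82 and 11.80 in treated mice, against 12.06, 11.94 and 12.01 in saline mice at day 9. At day 23 the levels were 11.70, 11.89 and 11.85 in treated mice, against 12.05, 12.15 and 11.98 in saline mice. The difference of -0.25 at day 23 (SE 0.08) was as large as that of day 3. Rps3a1 had 13.03, 13.01 and 13.02 in treated mice, against 13.25, 13.09 and 13.19 in saline mice at day 9, the day of its largest difference, -0.16 (SE 0.07).

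Of the 49 genes, 4 (8.16%) had no overlap in this direction on any of the 3 days: Rpl4, which lines the exit tunnel, Rpl8, Rps3a1 and Rpsa. Over all genes that share was 1.24%. Differences were below 0 on each of the 3 days for 27 of the 49 genes (55.1%), against 19.6% of all genes. The 18 mice carry 14 distinct numbers in the labels: saline mice of days 3 and 9 are both numbered 1, 2 and 3, and number 8 stands for a treated mouse of day 3 and one of day 9. Because a liver is taken once, a number that recurs on another day was counted as another mouse.

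Rpl13a, which has 4 probe sets of its own, had 12.76, 12.77 and 12.70 in treated mice, against 12.94, 12.88 and 12.92 in saline mice at day 9, without overlap. At day 3 it had 12.82, 12.91 and 12.77 in treated mice, against 13.04, 12.91 and 13.00 in saline mice, where the groups met at 12.91. All 4 of its probe sets differed in the same direction in the mean over days, by -0.15 for the brightest and by -0.44 (SE 0.07) for the dimmest. In a fit of every probe set, the dimmest also passed at day 3 (-0.49, limma adjusted p = 0.047) and day 9 (-0.52, adjusted p = 0.0447).

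Rpl7a, the gene with the long pyrimidine run, had 13.00, 13.02 and 13.03 in treated mice, against 13.17, 13.20 and 13.27 in saline mice at day 23. This was its largest difference, -0.20 (SE 0.06, limma adjusted p = 0.165), and the groups did not overlap. At day 9 the levels were 13.08, 13.11 and 13.02 in treated mice, against 13.13, 13.11 and 13.19 in saline mice, and the groups met at 13.11.

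**Figure D3:**
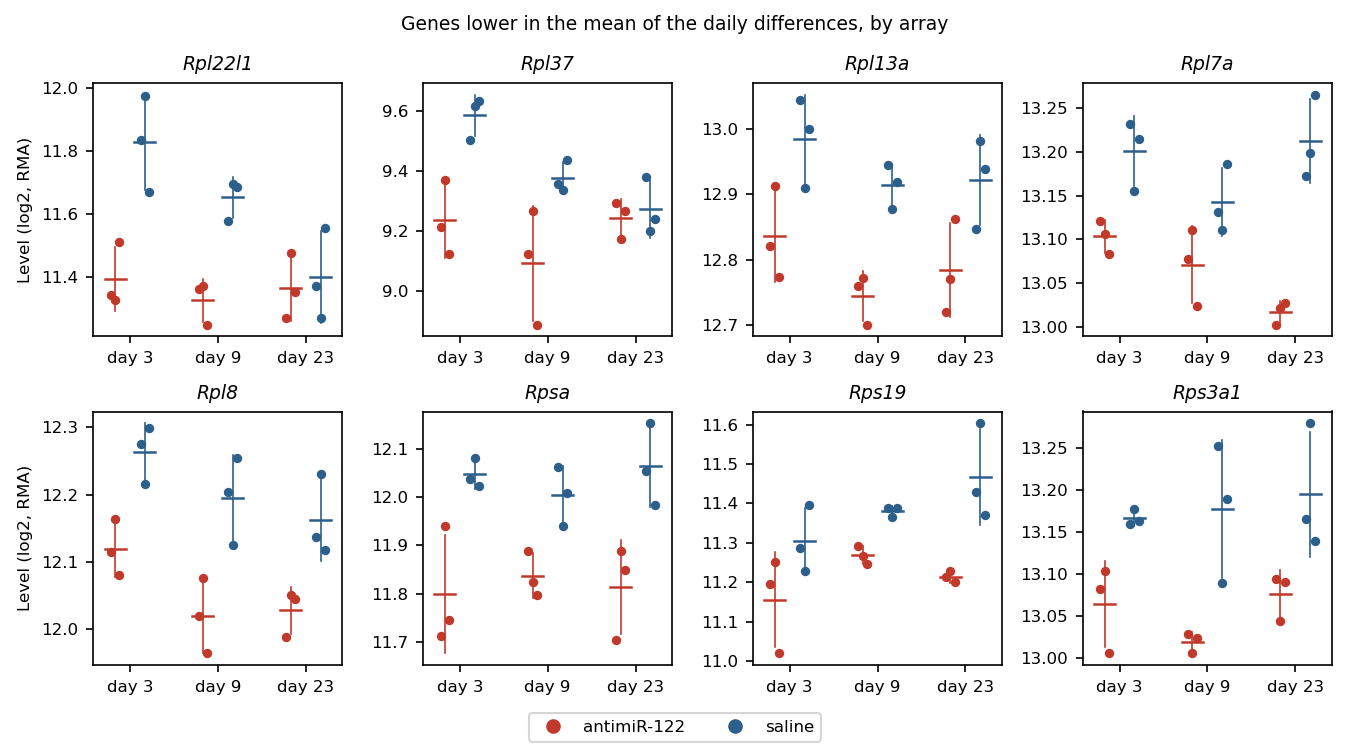
Levels (log2, RMA) of the 8 genes lower in the mean of the daily differences, with 1 point per array, antimiR-122 arrays in red to the left of saline arrays in blue, bars at the group mean and lines of 1 SD (n = 3). Rpl22l1 and Rpl37 are separated at days 3 and 9 and overlap at day 23, while Rpl8, Rpsa and Rps3a1 are separated on all 3 days.

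The probe sets of a gene did not always give one value. Rpl22 had probe sets with mean differences of -0.16, 0.03 and -0.04. Rpsa had a second, dim probe set (level 3.12) with a mean difference of 0.00. Among the 110 probe sets with several symbols, which were set apart from the 49 genes, limma called 1, 0 and 0 lower at days 3, 9 and 23, and 3 in the mean over days. Of all 45037 probe sets in that fit, 0.961%, 0.457% and 0.0511% were lower at days 3, 9 and 23, and 3.14% in the mean. The median differences of the 110 were -0.064, -0.074, -0.075 and -0.073, in the same order, with 93, 97, 88 and 97 of the 110 below 0. Over all probe sets the medians lay between -0.0159 and 0.00607, with 48.5%, 54.1%, 51.0% and 51.9% below 0.

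Each array was also summarised by the median difference of its 49 genes from the saline mean of its day. At day 3 the medians were -0.072, -0.016 and -0.098 in treated mice and -0.020, -0.012 and 0.028 in saline mice. At day 9 they were -0.062, -0.046 and -0.11 in treated mice and 0.018, -0.041 and 0.022 in saline mice. At day 23 they were -0.12, -0.094 and -0.099 in treated mice and -0.014, 0.049 and -0.033 in saline mice. The groups overlapped at day 3 and did not overlap at days 9 and 23. No test was made on these medians.

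**Figure D4:**
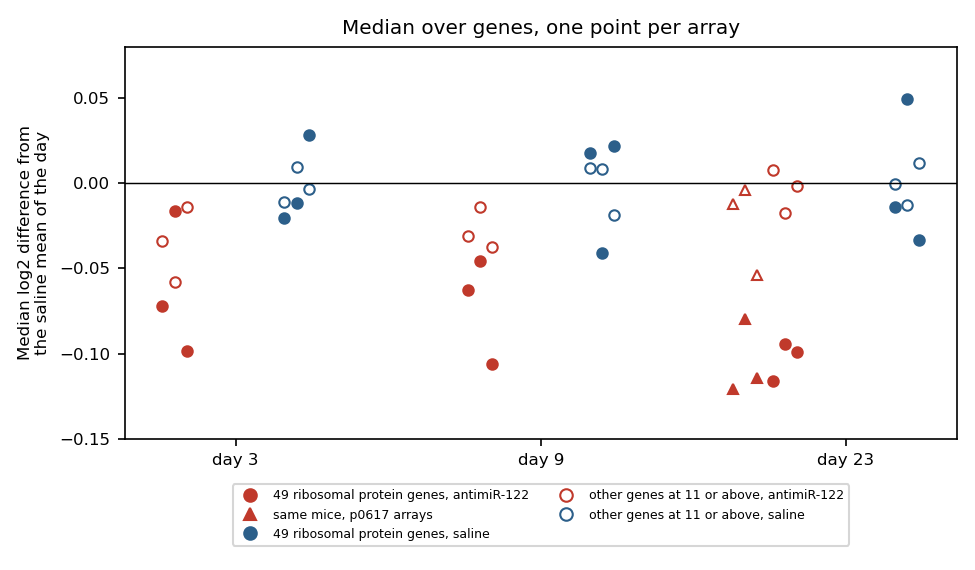
Median log2 difference from the saline mean of the day for each array, for the 49 ribosomal protein genes (filled) and for 708 other genes at level 11 or above (open), with antimiR-122 arrays in red left of saline arrays in blue and triangles for the repeat arrays in p0617 of the treated mice killed at day 23. At day 23 the filled red circles lie between -0.12 and -0.094, below all saline points, and the open red circles lie near 0. The filled triangles lie at -0.121, -0.0795 and -0.114, and the open ones at -0.0122, -0.0042 and -0.0539.

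The beta-actin measure of RNA quality and cell markers moved with treatment on some days. The log2 ratio of the 3′ to the 5′ probe set of the beta-actin control, which is larger in RNA with less intact 5′ ends, was 1.03 ± 0.02 in treated and 0.80 ± 0.05 in saline mice at day 3 (SD, n = 3). At day 9 it was 1.14 ± 0.02 in treated and 0.93 ± 0.06 in saline mice. At day 23 it was 1.15 ± 0.16 in treated and 1.16 ± 0.04 in saline mice, while the median difference of the 49 genes was -0.10. The same ratio of the Gapdh control was not higher in treated mice on the later days. It was 0.12 ± 0.18 in treated and 0.07 ± 0.19 in saline mice at day 3. At day 9 it was -0.06 ± 0.04 in treated and 0.15 ± 0.16 in saline mice, and at day 23 0.03 ± 0.03 and 0.12 ± 0.08. With the beta-actin ratio as a covariate 0 of the 49 genes passed limma's test in any daily comparison or in the mean over days. At an unadjusted p under 0.05, 3, 2 and 10 of the 49 were lower and 0, 2 and 1 higher at days 3, 9 and 23. In the mean, 5 were lower and 0 higher at that threshold. The count for all genes lower in the mean over days was 220 with the covariate and 1087 without it. For days 3, 9 and 23 the counts were 31, 4 and 31 with the covariate and 338, 163 and 36 without it. The medians of the 49 genes with the covariate were -0.046, -0.061 and -0.10 at days 3, 9 and 23, and -0.077 in the mean.

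Of 11 Kupffer cell markers 7 rose at day 3 and 0 fell. Their mean level per array was 9.35 to 9.98 in treated and 8.22 to 9.25 in saline mice, and all 11 were above the median level of all probe sets. Of 10 lymphocyte markers 2 rose, Ccl5 and Gzma, with mean levels per array of 5.10 to 5.34 in treated and 4.64 to 4.84 in saline mice. In that list 4 markers lay below the median level, Cd2 and Ms4a1 among the lowest. Of 4 cycling cell markers 3 rose, with mean levels per array of 5.431 to 6.499 in treated and 4.878 to 5.17 in saline mice, and of 8 hepatocyte markers 0 rose and 0 fell (0 at an unadjusted p under 0.05). Clec4g, a sinusoidal endothelial marker, rose by 0.60 (limma adjusted p = 0.00621) and Epcam, a cholangiocyte marker, by 0.32 (adjusted p = 0.0364).

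Fewer markers passed on the later days. At day 9 the hepatocyte marker Apob, the protein of very low density lipoprotein, rose by 0.98 (SE 0.18, limma adjusted p = 0.00708), as did Clec4g by 0.48 (adjusted p = 0.0364) and the stellate cell markers Dcn by 0.57 (adjusted p = 0.0452) and Reln by 0.63 (adjusted p = 0.0308). Kupffer cell markers had mean levels per array of 8.87 to 8.97 in treated and 8.51 to 8.88 in saline mice of day 9, which overlap. At day 23 limma called 0 genes of these lists, with 1 hepatocyte, 1 Kupffer cell, 2 endothelial, 3 stellate and 2 cycling cell markers higher and 1 Kupffer cell, 1 endothelial and 1 neutrophil marker lower at an unadjusted p under 0.05. In the mean over days 5 of 11 Kupffer cell, 3 of 4 cycling cell, 2 of 10 lymphocyte, 2 of 8 endothelial and 1 of 8 hepatocyte markers (Apob) rose, while Stab2, an endothelial marker, and Des, a stellate cell marker, fell. The part of cell types and of RNA quality in the differences of each day and of the mean over days was not tested beyond these values.

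No gene of the 49 was called for a change in its treated minus saline difference between days. Over all genes 0.143% were called for day 9 minus day 3, 0.302% for day 23 minus day 3 and 0.0055% for day 23 minus day 9. At an unadjusted p under 0.05 there were 1, 4 and 6 ribosomal protein genes. The difference of Rpl22l1 was 0.40 higher at day 23 than at day 3 (SE 0.14, limma adjusted p = 0.301), and that of Rpl37 was 0.32 higher (SE 0.14, adjusted p = 0.431). That these genes passed at day 3 and not at day 23 is therefore not shown to be a change with time.

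Between days 3 and 9 the same genes had a median difference near 0 in each group. Day 9 minus day 3 in saline mice gave 0 called genes of 49, against 5.88% of all genes. Of the 49, 4 had an unadjusted p under 0.05, and the median was 0.00039. In treated mice it also gave 0 called genes of 49, against 12.2% of all genes. Again 4 of the 49 had an unadjusted p under 0.05, and the median was 0.0042. The largest difference in treated mice, 1.01 for Rps4l (SE 0.37, limma adjusted p = 0.0865), belonged to the gene with one of the widest spreads. In saline mice Rps4l differed by 0.71.

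The treated mice of day 23 allow a comparison of array sets, p0621 minus p0617, in the same animals. With the mouse as a block limma called 0 of the 49 genes and 0% of all genes, with 2 of the 49 at an unadjusted p under 0.05. The median difference of the 49 was 0.0056, -0.019 and 0.0067 in mice 36, 37 and 38. In these mice 47, 45 and 40 of the 49 genes differed by at most 0.2 between arrays. Rpl27a, a large subunit protein, had the largest difference in each mouse, with 1.22, 0.99 and 0.72 more in p0621.

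This bears on Rpl27a at day 23, where it had 8.37, 8.62 and 8.39 in treated mice, against 8.09, 8.47 and 7.43 in saline mice. Its difference within p0621 was 0.46 (SE 0.18, limma adjusted p = 0.244). With the p0617 arrays of the same treated mice, set against saline arrays of p0621, it was -0.52. The median of the 49 genes at day 23 was -0.11 with the p0617 arrays.

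Other genes of translation were counted in the same fit, from lists chosen with earlier results of these data known. The lists share genes, among them the lowered Eif6, Eif4e, Eef2k and Eef1b2, so their counts are not separate. In the mean over days 5.97% of all genes were lower and 5.59% higher. Mitochondrial ribosomal proteins, which serve the separate ribosome of mitochondria, had the largest share of lowered genes among these lists in the mean over days, 39 of 76, with 4 higher and a median of -0.15. Mrps18b differed by -0.40 (SE 0.06, limma adjusted p = 0.000192) and Mrps10 by -0.31. Mrps11 and Mrps26 rose by 0.24 and 0.22. At single days 9, 0 and 2 of the 76 fell and 1, 2 and 0 rose.

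Ribosome assembly factors fell for 10 of 39 genes in the mean over days and 0 rose. At day 3, 7 of the 39 fell, with a median of -0.24. Rrs1 differed by -0.87 (SE 0.17, limma adjusted p = 0.00688) and Rrp12 by -0.67 (SE 0.18, adjusted p = 0.038) on that day, while cytosolic ribosomal protein genes had a median of -0.073. Polr1e, a subunit of RNA polymerase I, differed by -0.48 in the mean over days. At day 9, 1 of the 39 fell and the median was -0.0081.

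Initiation factors fell for 11 of 38 genes in the mean over days and rose for 1. Eif2b3, of the exchange factor of eIF2, differed by -0.30 (SE 0.05, limma adjusted p = 0.000747), and Eif3k was the gene that rose, by 0.26. Of 10 elongation and termination factors 3 fell and 1 rose. Eef2k, the kinase that inhibits elongation factor eEF2, differed by -0.35.

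Other messenger RNAs with TOP motifs fell for 1 of 17 genes and rose for 1 in the mean over days, against 5.97% and 5.59% of all genes. The lowered gene was Eef1b2, an elongation factor subunit, at -0.23 (SE 0.05, limma adjusted p = 0.00669), and Vim rose by 0.45. In the mTORC1 and S6 kinase list 2 of 18 fell and 2 rose, against the same shares of all genes. Those that rose were Ddit4 (0.59) and Sesn2 (0.28), both known as stress-induced inhibitors of mTORC1, and those that fell were Eef2k and Eif4e.

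**Figure D5:**
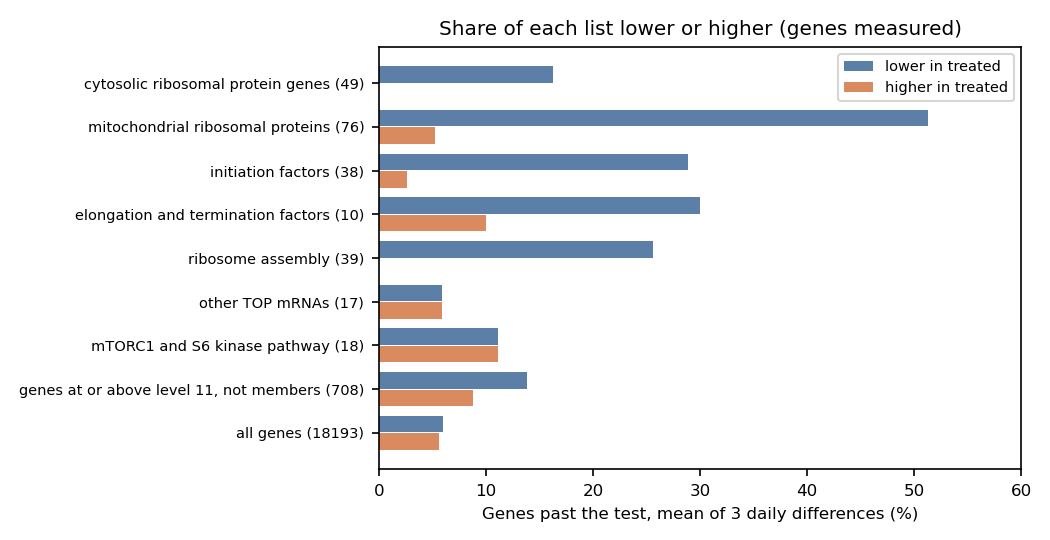
Share of the genes of each list that were lower or higher in treated liver in the mean of the 3 daily differences (adjusted p under 0.05), with the number of genes measured in brackets. Cytosolic ribosomal protein genes have 16.3% lower and 0% higher, near the 13.8% lower of other genes at level 11 or above, and mitochondrial ribosomal proteins have the longest bar.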

How the data were processed

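Liver RNA of 18 mice was labelled and hybridised to 21 Affymetrix mouse arrays. The deposited log2 values per probe set were made by the authors with RMA, per the submitters' processing notes. No source used here gives its version or says whether the array sets were normalized jointly. RMA compresses differences of dim probe sets. Of 45101 probe sets, 34945 had 1 gene symbol in the platform annotation. Entrez identifiers of 34741 were found in a RefSeq table (GRCm38.p6, used for names), which updated 0 symbols. The brightest probe set over 21 arrays stood for each of 18193 genes.

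A limma fit (lmFit and eBayes) of 6 groups took 18 arrays, with the p0621 array of each day 23 mouse (12 residual and 4.85 prior degrees of freedom), and p-values were adjusted by Benjamini-Hochberg. The labels number the mice, and p-values measure the spread between them. Errors are SDs of 3 mice or SEs of the fit. The steps were tested on simulated data. The genes followed, the lists and the settings were chosen with earlier results of these data known. Genes were named by rule: those called on a day without overlap of arrays, the 3 highest and 3 lowest differences of a day, the 3 highest and lowest levels, and 14 fixed symbols. Rps15, Rps25, Rpl4 and other genes outside this rule were named after their values were seen. The other settings covered the arrays fitted, normalization, probe set choice, filters, the prior, a replicate block, the beta-actin ratio, a fold threshold and each array left out. The work used limma 3.58.1 with the R package data.table (version 1.17.8) in R 4.3.3, and matplotlib 3.10.9 in Python 3.11.15.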

Additional observations from a re-analysis of the deposited data

How the results depend on the processing

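Of the counts and medians recomputed, 325 values stayed within their bounds and 37 did not. Of the single genes, 1495 values kept their direction and side of the threshold, 89 lost a call, 4 gained one, and 49 uncalled differences changed sign. No called difference changed sign. Genes higher at any day or in the mean over days stayed at 0 in every setting.

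The count lower at day 3, 2 genes, was 0 in a fit of the comparison's own 6 arrays, with the replicate block, with the beta-actin ratio and against a fold of 1.2, and 1 with quantile normalization or median centring, and 3 with probe sets averaged per gene or with an intensity trend and robust prior. Without 1 array it was 0 to 2. The count lower at day 9, 1 gene, was 0 with own arrays, quantile normalization, median centring, a filter at the median level, the block, the ratio or the fold, and 2 with an intensity trend and robust prior. Without 1 array it was 0 to 1. The count lower in the mean over days, 8 genes, was 3 with the block (Rpl22l1, Rpl37 and Rpsa), 0 with the ratio, 0 against the fold and 10 with a filter at the median level. Without 1 array it was 5 to 9, with 5 without treated day 9 replicate 3 or treated day 23 replicate 1. Between day 9 and day 3, saline mice gave 1 called gene with probe sets averaged per gene, 3 with every probe set and 1 without _x_at probe sets, and 0 to 1 without 1 array. Treated mice gave 1 with own arrays, 1 with the mean of probe sets and 2 with every probe set. The cause of these moves was not tested.

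The median at day 3 was -0.094 to -0.029 without 1 array, the value nearest 0 without saline day 3 replicate 3. At days 9 and 23 and in the mean it was -0.087 to -0.048, -0.13 to -0.091 and -0.087 to -0.065 over all settings.

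Replicate numbers recur in both groups of a day. Correlations across genes between same-numbered mice were 0.058, -0.14 and -0.094 at day 3 and 0.058, 0.078 and 0.011 at day 9. At day 23 they were 0.027, 0.042 and 0.019. A treated and a saline mouse of unlike numbers reached 0.17 at day 3. Deviations from means of 3 arrays cannot exclude a shared order of handling. Whether the block is a pairing therefore stayed undecided, and the reason for the calls lost under it was not tested. Over all genes, 797 were lower in the mean over days with the block and 1087 without it. With 3 mice per group, few single-gene differences passed the adjusted test at 1 day. Depth does not apply to arrays, and values near or below the median level, such as those of Rpl3l, give little signal over background.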
